A study of Mus musculus with 15 samples.

Results

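The genes described here encode the proteins of the cytosolic ribosome. They were the protein-coding genes of the count table whose GENCODE M21 symbol is Rpl or Rps followed by a number (with an optional a or x), Rplp0, Rplp1, Rplp2 or Rpsa, with pseudogenes left out. This symbol rule, which uses no measured value, found 76 genes among 46078 gene identifiers, 46 of the large subunit and 30 of the small. All 76 passed the filter on low counts, which kept 15152 genes. The rule misses Rps3a1, Fau, which fuses a ribosomal protein to a ubiquitin-like protein, and the paralogs whose symbols end in l, l1, al or rt; these are given further on as related genes. RNA was sequenced from B16-F10, a pigmented mouse melanoma cell line, in 15 libraries, 3 in each of 5 groups. In the compound arm, cells received 2 µM GSK126, 2 µM DZNep or the vehicle DMSO. In the siRNA arm, they received an siRNA against Ezh2 (siEzh2) or a scrambled control (scr). By the library numbers in the titles, GSK126 replicate 1 was numbered apart from the other libraries of the compound arm. GSK126 blocks the histone methyltransferase EZH2, which is the enzyme of Polycomb repressive complex 2. DZNep acts on methylation in general, through the hydrolase that clears S-adenosylhomocysteine. All groups are of this 1 cell line, and neither the length of treatment nor the kit used to make the libraries is stated in the labels.

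Each ribosome holds 1 copy of nearly every ribosomal protein, assembled on ribosomal RNA in the nucleolus, so their genes are expressed together at high levels in growing cells such as tumour lines. In vertebrates most of these mRNAs start with a C followed by a run of C and T, the TOP motif (5′ terminal oligopyrimidine tract), through which mTORC1 signalling and the binding protein LARP1 control their translation and stability. Several of the proteins also act outside the ribosome: when assembly is disturbed, RPL5 and RPL11, bound to 5S ribosomal RNA, block MDM2 and so stabilise p53. Ribosomal protein genes are the source of many processed pseudogenes in mammals, which makes their short reads hard to place.

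The 15 libraries held between 33299524 and 64545747 counts. Levels are given as CPM, read counts scaled to a common total after TMM adjustment of each library's size, and 1 count was worth between 0.0154 and 0.0306 CPM. Ezh2, the siRNA target, stood at 37.6, 39.9 and 41.3 CPM in the siEzh2 libraries, against 215, 227 and 215 CPM in the scr libraries. All 8 melanocyte lineage markers passed the filter, with Pmel at 3007 CPM or more in every library; of the markers of other cells, Cd3e, Itgam, Hbb-bs, Cdh5, Krt5 and Krt14 were at 0 in every library, while Fbln1, Cd68 and Vwf were detected in all. Mitochondrially encoded genes took between 6.17% and 10.6% of the counts. A few libraries stood apart from their groups. In DMSO replicate 3, the deepest library, their median log2 level was 0.26 above the mean of the other 2 DMSO libraries, with 65 of the 76 genes above 0, against a median of 0.01 and 51.3% of all genes tested. In the same library, other protein-coding genes with mRNAs of up to 500 bases lay 0.28 above those 2 libraries by their median, and those with mRNAs over 2000 bases at -0.03. Relative to each gene's mean in DMSO, siEzh2 replicate 2 had a median of 0.11 over the 76 genes, against -0.06 and -0.09 in the other 2 siEzh2 libraries. Over all genes, scr replicate 1 differed from the other 2 scr libraries by a chi-square of 36.3 and 28.5 per degree of freedom, against 8.71 between those 2. For DMSO replicate 3 these values were 38.8 and 26.7, against 9.07. For DZNep replicate 3 they were 24.5 and 15.8, against 8.46 between the other 2 DZNep libraries. Results are therefore also given without these libraries. Within groups, the ribosomal protein genes had a median SD of 0.16 on the log2 scale, against 0.09 for the 12767 genes tested in the same range of levels. Nothing in the labels says that the replicates came from separate cultures, so a p-value here is set against the spread of these libraries alone, which may be technical.

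The 76 genes took a small share of the counts, 0.828% ± 0.024 of the counts in GSK126, 0.694% ± 0.031 in DZNep and 0.899% ± 0.102 in DMSO (SD, n = 3 each). The share was 0.886% ± 0.059 in siEzh2 and 0.924% ± 0.045 in scr (SD, n = 3 each). The single libraries were at 0.663%, 0.725% and 0.693% with DZNep, against 0.833%, 0.847% and 1.02% with DMSO, so every DZNep library lay below every DMSO library. GSK126 libraries, at 0.855%, 0.820% and 0.809%, overlapped with the DMSO range, and siEzh2 libraries, at 0.854%, 0.955% and 0.850%, overlapped with the scr range of 0.888% to 0.974%. A further 255 annotated pseudogene entries named after these genes held 0.251% ± 0.007 of the counts with DZNep and 0.343% ± 0.014 with DMSO (SD, n = 3 each). In bulk RNA, fewer cells of a type and less RNA per cell cannot be told apart, and a share of counts says nothing on the amount of RNA in a cell.

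**Figure D1:**
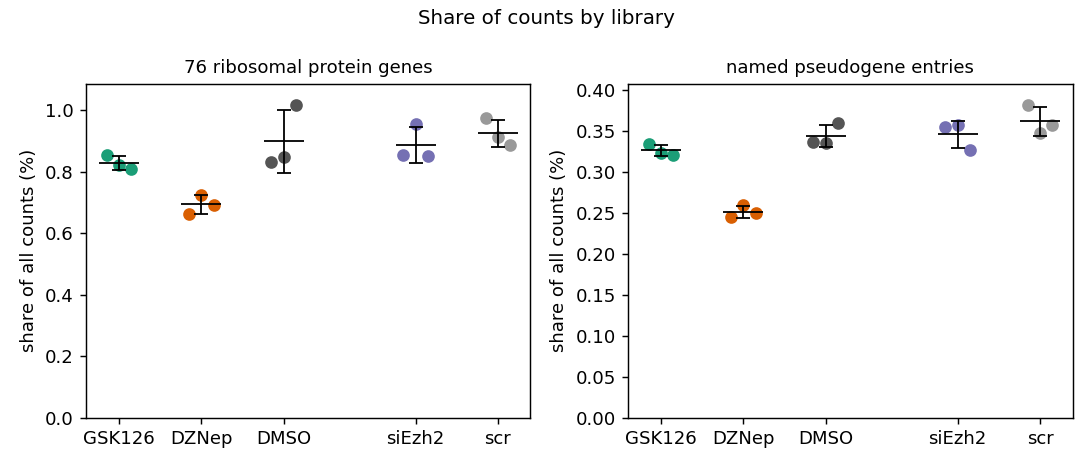
Share of all counts (%) taken by the 76 ribosomal protein genes (left) and by 255 pseudogene entries named after them (right) in each library; bars give the mean and SD of 3 libraries. The 3 DZNep libraries are the lowest in both panels, and DMSO replicate 3 is the highest of all 15 on the left.

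The measured levels differed widely between the genes, although the proteins are needed in nearly equal numbers. Per kilobase of annotated exons, the highest means over the DMSO libraries were those of Rplp1, an acidic protein of the stalk that recruits elongation factors (706 CPM per kb), Rpl4, which lines the peptide exit tunnel (594), Rpl32 (459), Rps15, a protein of the small subunit's head (320.3), and Rps2, which lies near the mRNA entry (309.6). The lowest were those of Rps13 (0.501 CPM per kb), Rpl24 (0.747), Rps27 (0.896), Rpl37 (1.29) and Rps12 (1.78). The DMSO libraries held 111 counts of Rpl24 and 146 counts of Rps27 in all, while those of Rpl4 held 180321.

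These levels went with how much of an mRNA is found elsewhere in the annotation. For each gene, the share of 75-base windows of its mRNA that also occur in transcripts of another gene was computed from the GENCODE M21 sequences; the length of 75 bases was chosen for this description, and the read length is not given in the labels. The 38 genes with at least 50% of their windows shared had a median level of 10.3 CPM per kb in DMSO, and the 38 with less had 36.9. Across the 76 genes the Spearman correlation of the shared part with the log2 level was -0.45, given as a description, since all points come from the same 3 libraries. Rps3, with no shared window, was measured at 99.6 CPM per kb, and Rps12, with 89.5% of its windows shared, at 1.78. Some genes went the other way, such as Rps2, which was among the highest with 71.1% shared. How reads that fit more than 1 gene were counted is not given in the sources used here, so a low level of a gene with many copies is not a measure of its own expression.

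**Figure D2:**
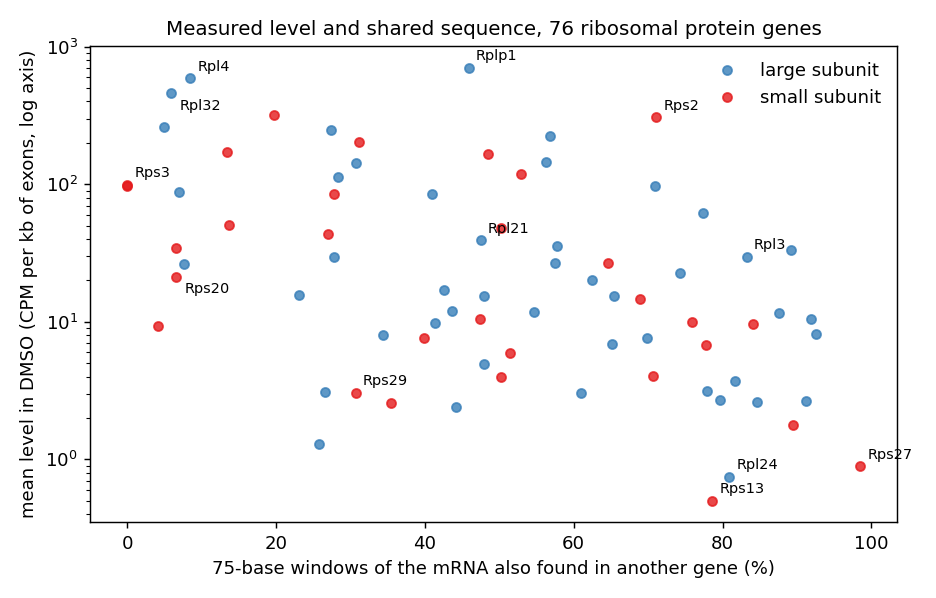
Mean level in the 3 DMSO libraries (CPM per kb of exons, log axis) against the percentage of 75-base windows of the mRNA found in another gene, 1 point for each of 76 genes, blue for the large and red for the small subunit. Points at the right tend to lie lower, from Rpl4 and Rpl32 at the upper left to Rps27 at the lower right.

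Rps27 shows this at the level of its sequence. It encodes a zinc finger protein of the small subunit and has a retrogene, Rps27rt, and a paralog, Rps27l, which in mouse and human is a target of p53. Their first 90 coding bases, read from the GENCODE M21 transcripts (GRCm38) and shown because 2 of the 3 cannot be told apart, are given 5′ to 3′, and capitals mark bases that differ from Rps27.
Rps27: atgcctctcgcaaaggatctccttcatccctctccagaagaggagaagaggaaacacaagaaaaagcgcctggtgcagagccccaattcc
Rps27rt: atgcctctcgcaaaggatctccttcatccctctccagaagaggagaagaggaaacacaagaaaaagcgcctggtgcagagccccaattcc
Rps27l: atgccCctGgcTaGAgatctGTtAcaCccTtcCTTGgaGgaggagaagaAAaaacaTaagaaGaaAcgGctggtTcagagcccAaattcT
Over all 252 coding bases, Rps27rt has 0 differences from Rps27 and Rps27l has 60, an identity of 76.2%. The transcripts lie at chr3:90212671-90213651 (Rps27, minus strand), chr9:114982366-114982739 (Rps27rt, minus strand) and chr9:66946086-66949512 (Rps27l, plus strand). Nearly all counts of the identical pair were listed under the retrogene, which averaged 187 ± 6.58 CPM in DMSO, against 0.935 ± 0.238 CPM for Rps27 (SD, n = 3). Counts listed under both copies fell with DZNep, and those of the paralog rose. As 98.5% of the windows of Rps27 are shared with other genes, the 2 falls cannot be taken as separate results. Rps27rt stood at 116, 115 and 106 CPM in DZNep libraries, against 183, 183 and 194 CPM in DMSO libraries (log2 fold change -0.73 ± 0.10, adjusted p = 1.31e-05, edgeR's quasi-likelihood test). Rps27 itself was at 0.590, 0.620 and 0.588 CPM in DZNep libraries, against 0.741, 0.862 and 1.20 CPM in DMSO libraries (-0.67 ± 0.21, adjusted p = 0.00912), a call that was lost without DMSO replicate 3 (adjusted p = 0.124). Rps27l was at 82.2, 81.5 and 61.2 CPM in DZNep libraries, against 37.2, 43.4 and 42.3 CPM in DMSO libraries (0.87 ± 0.11, adjusted p = 5.14e-06). Every DZNep library was below every DMSO library for Rps27 and Rps27rt, and above every one for Rps27l.

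With DZNep, ribosomal protein mRNAs fell more often than they rose. Of the 76 genes, 38 fell and 5 rose relative to DMSO at an adjusted p under 0.05 in the edgeR quasi-likelihood test with Benjamini-Hochberg adjustment over all genes, while 31.0% of all genes tested fell and 31.2% rose. The median log2 fold change of the 76 genes was -0.31, against 0.00 over all genes tested. For 38 genes all 3 DZNep libraries lay below all 3 DMSO libraries, and for 1 they lay above, where the shares over all genes were 31.6% and 31.4%. Among the small subunit genes 20 of 30 fell and 0 rose, with a median of -0.46 (21 of the 30 had an unadjusted p under 0.05, and DESeq2 also called 0 higher). Among the large subunit genes 18 of 46 fell and 5 rose, with a median of -0.24; the difference between the subunits was not tested. Without DMSO replicate 3, 31 of the 38 decreases kept their call and the median was -0.20. Without DZNep replicate 3, 36 of the 38 decreases and 2 of the 5 increases kept their call. Of all genes tested, 30.2% fell and 31.3% rose without DMSO replicate 3, and 28.5% fell and 28.9% rose without DZNep replicate 3. Fibroblast markers moved in the same comparison: 4 of the 5 tested rose, and the 8 listed summed to between 398 and 416 CPM in DZNep libraries, against 190 to 228 CPM in DMSO libraries, while Col3a1, Dcn and Lum were at most 0.143 CPM in any library. Of the blood markers, 2 of 3 tested rose, summing over the 8 listed to between 7.72 and 8.60 CPM in DZNep libraries, against 4.35 to 4.90 CPM in DMSO libraries. The 1 endothelial marker tested, Vwf, rose, and the 5 listed summed to between 12.2 and 12.9 CPM in DZNep libraries, against 5.36 to 7.55 CPM in DMSO libraries. Of the 8 melanocyte lineage markers, 3 fell and 3 rose, and the 8 summed to between 22199.9 and 22577 CPM in DZNep libraries, against 25399.6 to 25734 CPM in DMSO libraries. The part of these genes in the result was not tested.

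**Figure D3:**
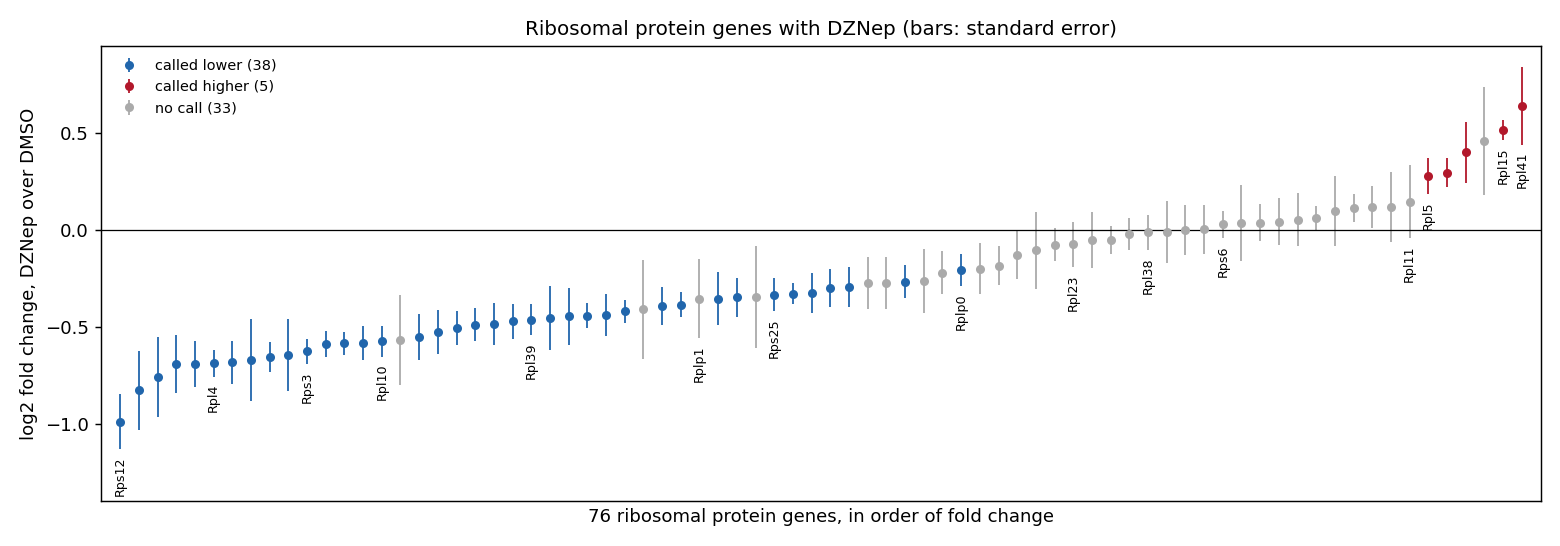
Log2 fold change of each ribosomal protein gene, DZNep over DMSO, with its standard error, 1 point for each of the 76 genes in order of fold change, with some of the genes named here labelled. The 38 genes called lower (blue) run from Rps12 at -0.99, and the 5 called higher (red) end with Rpl41 at 0.64.

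The largest decreases came from both subunits and from very different levels. Rps12, which in Drosophila is needed for the competition between cells with unequal ribosomal protein dose, had 1.74, 1.86 and 1.88 CPM in DZNep libraries, against 3.35, 3.56 and 3.94 CPM in DMSO libraries. Its DZNep values were close together and all below the lowest DMSO value, a log2 fold change of -0.99 ± 0.14, adjusted p = 4.83e-06, but 89.5% of its windows are shared and 21 pseudogene entries bear its name. Rps16, whose tail reaches the peptidyl-tRNA site, had 1.83, 1.67 and 2.13 CPM in DZNep libraries, against 2.87, 2.54 and 4.40 CPM in DMSO libraries, again without overlap (-0.83 ± 0.20, adjusted p = 0.00169). Its DMSO values were led by replicate 3. Rpl21 had 97.6, 89.8 and 61.9 CPM in DZNep libraries, against 109, 140.3 and 152 CPM in DMSO libraries (-0.69 ± 0.15, adjusted p = 0.00151). Rpl3, which reaches towards the peptidyl transferase centre, had 56.3, 56.7 and 62.7 CPM in DZNep libraries, against 79, 86.2 and 118 CPM in DMSO libraries (-0.69 ± 0.12, adjusted p = 0.000146). For Rpl21 and Rpl3, too, the groups did not overlap. Shared windows made up 83.2% of Rpl3, 47.5% of Rpl21 and 35.5% of Rps16.

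Among well measured genes, Rpl4 carried the most counts of the family. It stood at 739, 777 and 700.2 CPM in DZNep libraries, against 1156, 1142 and 1277 CPM in DMSO libraries, and 8.47% of its windows are shared with another gene. The groups lay far apart relative to their spread (log2 fold change -0.69 ± 0.07, adjusted p = 3.50e-08). Rps3, which forms part of the mRNA entry channel and shares no window, had 279, 299 and 289 CPM in DZNep libraries, against 411, 420.4 and 508 CPM in DMSO libraries (-0.63 ± 0.06, adjusted p = 5.76e-08). Rpsa, known also as the laminin receptor, had 348, 369.9 and 330.3 CPM in DZNep libraries, against 522, 534 and 524 CPM in DMSO libraries (-0.59 ± 0.07, adjusted p = 2.29e-07). Unlike Rpl4 and Rps3, it has 48.5% of its windows shared, and 9 pseudogene entries bear its name, so it is less surely measured. In both Rps3 and Rpsa, all DZNep values lay below all DMSO values, and for Rpsa DMSO replicate 3 lay between the other 2. Of the 26 genes at 100 CPM or more in DMSO, 21 (80.8%) fell and 1 rose, with a median of -0.45. Of the 50 genes under 100 CPM, 17 (34.0%) fell and 4 rose, with a median of -0.19; the share that fell was near the 31.0% of all genes. The level in DMSO is also part of the fold change, so the 2 counts are a description.

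**Figure D4:**
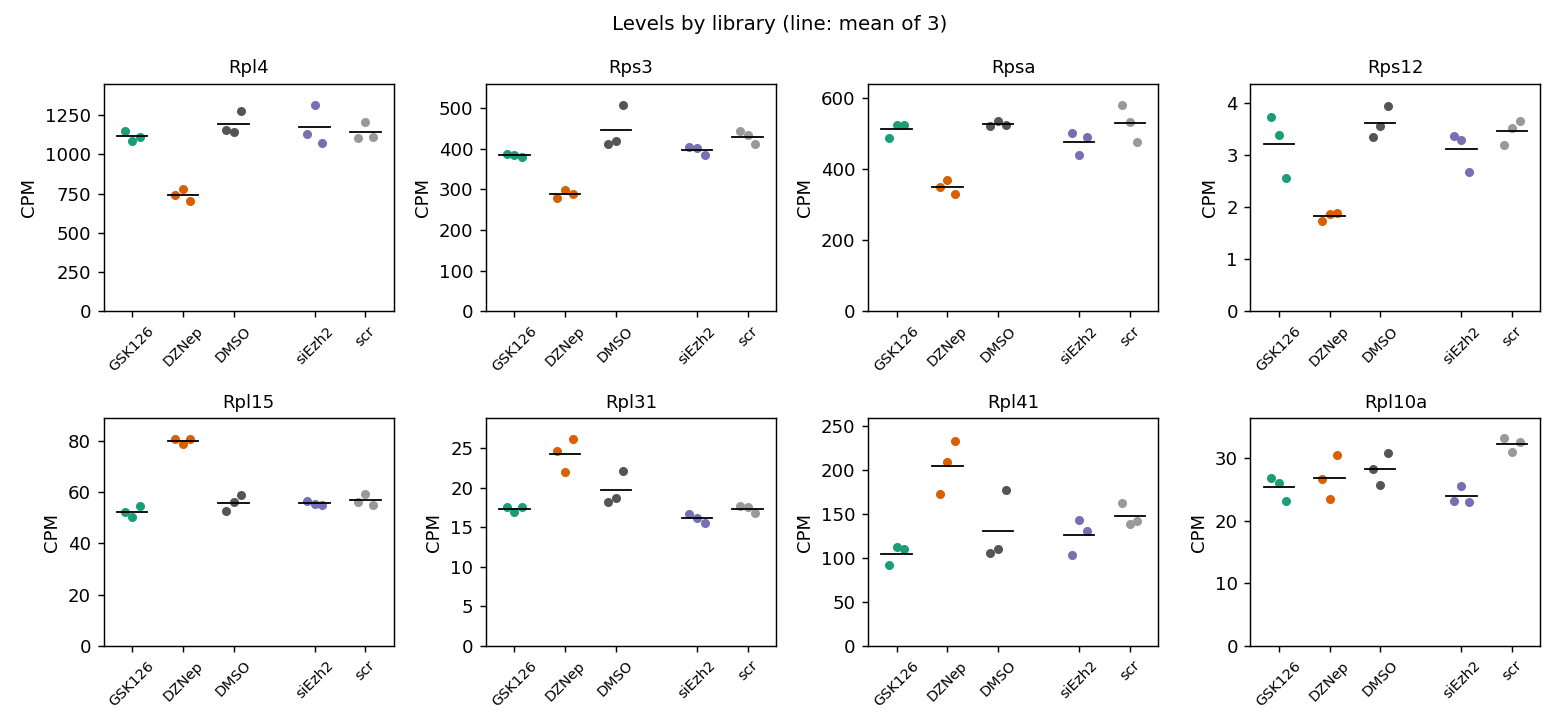
Levels in CPM of 8 ribosomal protein genes in each library, with the mean of the 3 libraries of a group as a line. DZNep libraries lie below the other groups for Rpl4, Rps3, Rpsa and Rps12 and above them for Rpl15, and siEzh2 libraries lie below scr libraries for Rpl10a.

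The 5 genes that rose with DZNep were all of the large subunit. Rpl15, a large subunit protein needed for ribosomal RNA processing, had 80.6, 78.7 and 80.7 CPM in DZNep libraries, against 52.5, 56.3 and 58.8 CPM in DMSO libraries. It was the only gene of the 76 whose DZNep libraries all lay above the DMSO libraries (0.52 ± 0.05, adjusted p = 3.45e-08), and the only 1 of the 5 increases that kept its call in each alternative tried. Rpl41, the shortest of the ribosomal proteins, had 173, 209 and 233 CPM in DZNep libraries, against 106, 111 and 178 CPM in DMSO libraries (0.64 ± 0.20, adjusted p = 0.0161). Rpl36 had 45.1, 48 and 55.8 CPM in DZNep libraries, against 30.2, 33.8 and 48.3 CPM in DMSO libraries (0.40 ± 0.16, adjusted p = 0.0398). In both, DMSO replicate 3 reached into the DZNep range, and the calls were lost without DZNep replicate 3 or without DMSO replicate 1 or 2 (adjusted p from 0.0640 to 0.0658 for Rpl41 and from 0.131 to 0.156 for Rpl36). That of Rpl36 was also lost without DZNep replicate 2 (adjusted p = 0.0649). Rpl31 had 24.7, 22 and 26.1 CPM in DZNep libraries, against 18.1, 18.7 and 22.2 CPM in DMSO libraries (0.30 ± 0.08, adjusted p = 0.00197). When the counts of its 21 named pseudogene entries were added to those of the gene, its log2 fold change was -0.16 (adjusted p = 0.0903). The same addition, chosen after the data had been seen, turned 2 genes without a call into decreases, Rps6 at -0.46 (adjusted p = 3.72e-08) and Rps13 at -0.39 (adjusted p = 0.000845). Rpl15, Rpl31 and Rpl5 each overlap a protein-coding gene on the other strand (Nkiras1, Tbc1d8 and Fam69a), and whether strand was used in counting is not stated. Of the 58 genes that overlap no protein-coding gene, 31 (53.4%) fell and 2 (3.45%) rose, where 31.0% of all genes tested fell and 31.2% rose.

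The measured levels of the genes with known roles outside the ribosome did not move as 1 group. Rpl5, which with Rpl11 and 5S ribosomal RNA forms the particle that binds MDM2, had 41.3, 34.6 and 39.9 CPM in DZNep libraries, against 28.2, 30.8 and 36 CPM in DMSO libraries. The groups overlapped through DMSO replicate 3, the log2 fold change was 0.28 ± 0.09, adjusted p = 0.0156, and the call was lost without DZNep replicate 1 or 3 or DMSO replicate 1 or 2 (adjusted p from 0.0521 to 0.0812). Rpl11 had 9.97, 8.10 and 9.59 CPM in DZNep libraries, against 6.76, 7.24 and 10.6 CPM in DMSO libraries, overlapping groups with no call (0.15 ± 0.19, adjusted p = 0.527). Rpl23, another protein that binds MDM2, was at -0.08 ± 0.12, and Rpl26, which in human cells binds the mRNA of p53, at -0.18 ± 0.10, both without a call (adjusted p = 0.601 and 0.121). Rpl22, an RNA-binding protein needed for T cell development in mice, had 175, 175 and 125 CPM in DZNep libraries, against 245, 273 and 246 CPM in DMSO libraries, without overlap (-0.68 ± 0.11, adjusted p = 8.79e-05). Rps6, the substrate of the S6 kinases downstream of mTORC1, had 16.6, 16.2 and 14 CPM in DZNep libraries, against 15.8, 15.7 and 14.3 CPM in DMSO libraries (0.03 ± 0.07, adjusted p = 0.745). Its groups overlapped. Of the stalk genes, Rplp0 was called lower (-0.21 ± 0.08, adjusted p = 0.0413), a call lost without DMSO replicate 3 (adjusted p = 0.323) and without DZNep replicate 1 (0.169) or 2 (0.0593), while Rplp1 (-0.36 ± 0.20, adjusted p = 0.153) and Rplp2 (-0.11 ± 0.20, adjusted p = 0.670) had no call. Rpl10, which joins the large subunit late near the peptidyl transferase centre, fell (-0.57 ± 0.08, adjusted p = 3.62e-06), as did Rpl39, a protein of the exit tunnel (-0.46 ± 0.08, adjusted p = 4.83e-05), and Rps25, which some viral internal ribosome entry sites need (-0.33 ± 0.09, adjusted p = 0.00262). Rpl38, which in mouse embryos is needed for the translation of certain Hox mRNAs, was at -0.01 ± 0.09 with no call (adjusted p = 0.911). Shared windows made up 92.5% of Rpl5, 91.9% of Rpl10, 84.1% of Rps6 and 61.0% of Rpl11, so these genes are less surely measured. They made up 7% of Rpl22 and 7.62% of Rpl39.

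The TOP motif lies at the mRNA start, and the region around the RefSeq transcription start was read for genes called in either direction. RefSeq promoter sequences of GRCm38.p6 matched 56 of the 76 genes. The windows from 30 bases before the start to 20 bases from it are shown for 3 genes that fell and then 3 that rose, 5′ to 3′, and capitals mark the longest unbroken run of C and T.
Rpl4: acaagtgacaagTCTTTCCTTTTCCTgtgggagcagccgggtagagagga
Rps3: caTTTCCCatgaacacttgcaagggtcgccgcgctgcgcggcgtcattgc
Rpsa: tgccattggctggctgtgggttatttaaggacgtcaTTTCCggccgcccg
Rpl15: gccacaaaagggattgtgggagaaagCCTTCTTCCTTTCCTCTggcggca
Rpl31: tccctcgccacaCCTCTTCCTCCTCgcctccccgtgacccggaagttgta
Rpl5: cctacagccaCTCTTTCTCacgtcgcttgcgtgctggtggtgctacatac
They lie at chr9:64173357-64173406 (Rpl4, plus strand), chr7:99483690-99483739 (Rps3, minus strand), chr9:120127736-120127785 (Rpsa, plus strand), chr14:18270967-18271016 (Rpl15, minus strand), chr1:39367821-39367870 (Rpl31, plus strand) and chr5:107900498-107900547 (Rpl5, plus strand). The longest run had 14 bases in Rpl4 and 17 in Rpl15, and 5 in Rpsa. Positions were counted from the RefSeq start, whose first base is 1, with the base before it -1. The run began at -18 in Rpl4 and Rpl31, -20 in Rpl5 and -28 in Rps3, and in these 4 genes it ended before that start. It began at -4 in Rpl15 and spanned the start, and at 7 in Rpsa, after the start. GENCODE M21 sets the gene start of the 4 further upstream. That start fell within the run in Rpl4 (64173375) and Rpl31 (39367842), and before the run in Rps3 (99483738) and Rpl5 (107900502). Whether a run lies at the mRNA start, as a TOP motif would, therefore depends on the annotation used. Only the strand of the transcript was searched. A run of 8 or more C and T was found in 27 of the 56 ribosomal protein genes with a promoter (48.2%), against 6642 of 32851 promoter entries of all genes (20.2%). Among the ribosomal protein genes it was found in 15 of 25 that fell with DZNep, 3 of 4 that rose and 9 of 27 without a call. A run is a description of these letters, and no run says only that these letters are not in this window.

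GSK126 at the same dose moved few of the genes. Relative to DMSO, 4 of the 76 fell and 0 rose, where 5.54% of all genes tested fell and 7.15% rose, and DESeq2 called 1 higher. The 4 decreases are thus a share close to that of all genes. The median log2 fold change was -0.14, against -0.01 over all genes, and 19 of the 76 had an unadjusted p under 0.05. The 4 were small subunit genes. Rps4x, encoded on the X chromosome, had 169, 165 and 163 CPM in GSK126 libraries, against 178, 196 and 206 CPM in DMSO libraries (-0.23 ± 0.05, adjusted p = 0.00834). Rps15 had 161, 176 and 172 CPM in GSK126 libraries, against 185, 189.8 and 230.2 CPM in DMSO libraries (-0.25 ± 0.07, adjusted p = 0.0267). Rps3 had 387, 386 and 380.3 CPM in GSK126 libraries, against 411, 420.4 and 508 CPM in DMSO libraries (-0.22 ± 0.06, adjusted p = 0.0313), and Rps15a was at -0.19 ± 0.06, adjusted p = 0.0355. In each, all GSK126 values lay below all DMSO values, as they did for 15.1% of all genes tested. The call of Rps4x was kept in each alternative tried. Without DMSO replicate 3, the calls of Rps15, Rps3 and Rps15a were lost (adjusted p from 0.157 to 0.191). The count of decreases depended on the DMSO libraries: it was 1 without DMSO replicate 3, 12 without replicate 1 and 8 without replicate 2. Of all genes tested, 2.98%, 8.07% and 5.10% fell in these fits, in the same order. Without GSK126 replicates 1, 2 and 3 in turn the count was 2, 2 and 1, where 2.74%, 2.94% and 3.05% of all genes fell. With no filter on low counts the count was 28, where 4.82% of the 25395 genes then tested fell. With only the GSK126 and DMSO libraries in the fit the count was 1, where 2.83% of all genes fell. Of the 8 melanocyte lineage markers, 4 fell with GSK126, and the 8 summed to between 21488 and 21862 CPM in GSK126 libraries, against 25399.6 to 25734 CPM in DMSO libraries. Of the fibroblast markers 2 of 5 tested fell and 1 rose, and the 8 listed summed to between 168 and 189 CPM in GSK126 libraries, against 189.8 to 228 CPM in DMSO libraries. Of 3 blood markers tested 1 fell, and the 8 listed summed to between 3.73 and 4.351 CPM in GSK126 libraries, against 4.355 to 4.90 CPM in DMSO libraries. Vwf had no call (-0.33), and the 5 endothelial markers summed to between 4.54 and 5.35 CPM in GSK126 libraries, against 5.36 to 7.55 CPM in DMSO libraries. The part of these markers in the result was not tested. Rpl15 (-0.09 ± 0.05), Rpl4 (-0.10 ± 0.07) and Rpsa (-0.04 ± 0.07), which were called with DZNep, had no call with GSK126. Both comparisons use the same DMSO libraries. Set against GSK126 libraries instead, DZNep libraries were lower for 25 of the 76 genes and higher for 7, where 31.7% of all genes were lower and 32.9% higher, so the share lower was close to that of all genes. Rps12 (-0.81 ± 0.15, adjusted p = 6.76e-05) and Rpl4 (-0.59 ± 0.07, adjusted p = 2.45e-07) were among the lower ones, and Rpl41 (0.97 ± 0.20, adjusted p = 0.00139), Rpl36 (0.78 ± 0.16, adjusted p = 0.000829), Rpl15 (0.61 ± 0.05, adjusted p = 2.88e-09) and Rpl31 (0.48 ± 0.08, adjusted p = 1.46e-05) among the higher.

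The knockdown of Ezh2 also left most of the genes without a call. Relative to scr, 3 of the 76 fell and 0 rose, where 12.9% of all genes tested fell and 13.2% rose. The median log2 fold change was -0.10, against -0.01 over all genes, 13 of the 76 had an unadjusted p under 0.05, and DESeq2 also called 0 higher. Without siEzh2 replicate 2 the median was -0.13 with 4 decreases, and without scr replicate 1 it was -0.05 with 1 decrease. Rpl10a, a protein of the L1 stalk near the tRNA exit, had 23.3, 25.6 and 23.1 CPM in siEzh2 libraries, against 33.2, 31 and 32.7 CPM in scr libraries. All siEzh2 values lay below all scr values, as they did for 21.6% of all genes tested (-0.43 ± 0.08, adjusted p = 0.000789), and its call was kept in each alternative tried. Rps19, the gene most often mutated in Diamond-Blackfan anaemia in humans, had 30.6, 29.2 and 29 CPM in siEzh2 libraries, against 39.2, 36.3 and 34.1 CPM in scr libraries (-0.31 ± 0.09, adjusted p = 0.0124). Rpl13a, which in human monocytes joins a complex that silences inflammatory mRNAs, had 279, 295 and 278 CPM in siEzh2 libraries, against 389, 324 and 329 CPM in scr libraries (-0.29 ± 0.08, adjusted p = 0.00927). Without siEzh2 replicate 3 or scr replicate 1, the calls of Rps19 and Rpl13a were lost (adjusted p from 0.0523 to 0.0961), which left 1 decrease in each case; there were 6 decreases without siEzh2 replicate 1 and 8 without scr replicate 3. There were 4 increases without siEzh2 replicate 3 and 2 without scr replicate 3. Of all genes, 10.4% fell without siEzh2 replicate 1 and 9.62% without scr replicate 3. The shares that rose were 11.8% without siEzh2 replicate 3 and 11.7% without scr replicate 3. With no filter on low counts there were 12 decreases and 4 increases, where 8.39% of all genes then tested fell and 7.56% rose. With pseudogene counts added the call of Rps19 was lost (adjusted p = 0.105). In the same comparison 7 of 8 melanocyte lineage markers rose, summing to between 24188 and 25653.5 CPM in siEzh2 libraries, against 19014 to 20110.4 CPM in scr libraries. Relative to DMSO, where the 8 summed to between 25399.6 and 25734 CPM, scr libraries were lower for 5 and higher for 1. Of all genes, 13.6% and 12.2% were called so. Of the fibroblast markers, 3 of 5 tested rose (median 0.68), and the 8 listed summed to between 194 and 201 CPM in siEzh2 libraries, against 193 to 196 CPM in scr libraries. Vwf rose (2.49), and the 5 endothelial markers summed to between 10.9 and 12.2 CPM in siEzh2 libraries, against 1.70 to 2.41 CPM in scr libraries. Vwf was also called lower in scr libraries than in DMSO libraries (-1.52). Of the 3 blood markers tested 0 were called (0 had an unadjusted p under 0.05, and DESeq2 called 0). The part of these genes in the result was not tested. Rplp1 varied between libraries and had no call, at 310.2, 528 and 352 CPM in siEzh2 libraries, against 297, 306 and 324 CPM in scr libraries (0.36 ± 0.20, adjusted p = 0.230).

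The effects were also compared with each other. The effect of siEzh2 (against scr) minus that of GSK126 (against DMSO) was called above 0 for 2 genes, Rps4x (0.25 ± 0.08, adjusted p = 0.0233) and Rpl7a (0.26 ± 0.09, adjusted p = 0.0468), and below 0 for 0, where 10.1% and 10.5% of all genes were called; 7 of the 76 had an unadjusted p under 0.05, and DESeq2 also called 0 below. Leaving out 1 library at a time gave between 0 and 5 genes above 0 and 0 or 1 below. The effect of DZNep minus that of siEzh2 was called below 0 for 23 genes and above 0 for 4, where 25.8% and 25.3% of all genes were called. The share below 0 was close to that of all genes. Rps12 (-0.83 ± 0.20, adjusted p = 0.00143), Rpl10 (-0.75 ± 0.11, adjusted p = 1.48e-05) and Rpl4 (-0.73 ± 0.10, adjusted p = 3.39e-06) were among the 23, and the 4 were Rpl41 (0.87 ± 0.28, adjusted p = 0.0242), Rpl15 (0.55 ± 0.07, adjusted p = 3.57e-06), Rpl31 (0.41 ± 0.11, adjusted p = 0.00395) and Rpl10a (0.35 ± 0.12, adjusted p = 0.0190). The 4 became 8 without DMSO replicate 3 and 2 without DZNep replicate 3, DMSO replicate 2 or scr replicate 1. Between the controls, scr libraries were higher than DMSO libraries for Rpl30 (0.28 ± 0.10, adjusted p = 0.0473) and lower for Rpl5 (-0.35 ± 0.10, adjusted p = 0.0121) and Rpl27a (-0.19 ± 0.06, adjusted p = 0.0308), 1 and 2 of 76, where 12.2% and 13.6% of all genes were called. Without DMSO replicate 3 these counts were 14 higher and 0 lower; the higher count was 0 without DMSO replicate 1 or 2 or scr replicate 1, and 3 without scr replicate 2. The lower count was 1 without any 1 of the scr replicates. The share of all genes called in these fits was not computed.

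Related genes outside the symbol rule moved in several directions with DZNep. Of the 9 listed paralogs, 5 were tested; Rps27l and Rpl7l1 (0.43 ± 0.05, adjusted p = 5.35e-07) rose, Rps27rt fell, and Rpl22l1, the paralog that RPL22 represses in mice (-0.23 ± 0.11, adjusted p = 0.0702), and Rpl36al (0.07 ± 0.10, adjusted p = 0.608) had no call. Rpl39l and Rpl10l were at 0 in every library, and Rpl3l and Rps4l had at most 1 count in a library. Fau had no call (-0.03 ± 0.14, adjusted p = 0.859). Rps3a1 had no call (-0.17 ± 0.14, adjusted p = 0.304). Of the 69 pseudogene entries tested, 34 were called lower and 1 higher, where 31.0% and 31.2% of all genes were; the median was -0.45. With GSK126 and with siEzh2, edgeR's test called 0 of the 5 paralogs (in each comparison 1 had an unadjusted p under 0.05, and DESeq2 called 0). Fau had no call with GSK126 (-0.12 ± 0.14, adjusted p = 0.651) or siEzh2 (-0.21 ± 0.14, adjusted p = 0.316). Rps3a1 had no call with GSK126 (-0.31 ± 0.14, adjusted p = 0.178) or siEzh2 (0.13 ± 0.14, adjusted p = 0.563). Of the 69 pseudogene entries, 0 were called with GSK126, where 12 had an unadjusted p under 0.05 and DESeq2 called 2, and 1 was called higher with siEzh2. For the paralogs and the pseudogene entries alike, the shares over all genes tested were 5.54% lower and 7.15% higher with GSK126. With siEzh2 they were 12.9% lower and 13.2% higher.

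**Figure D5:**
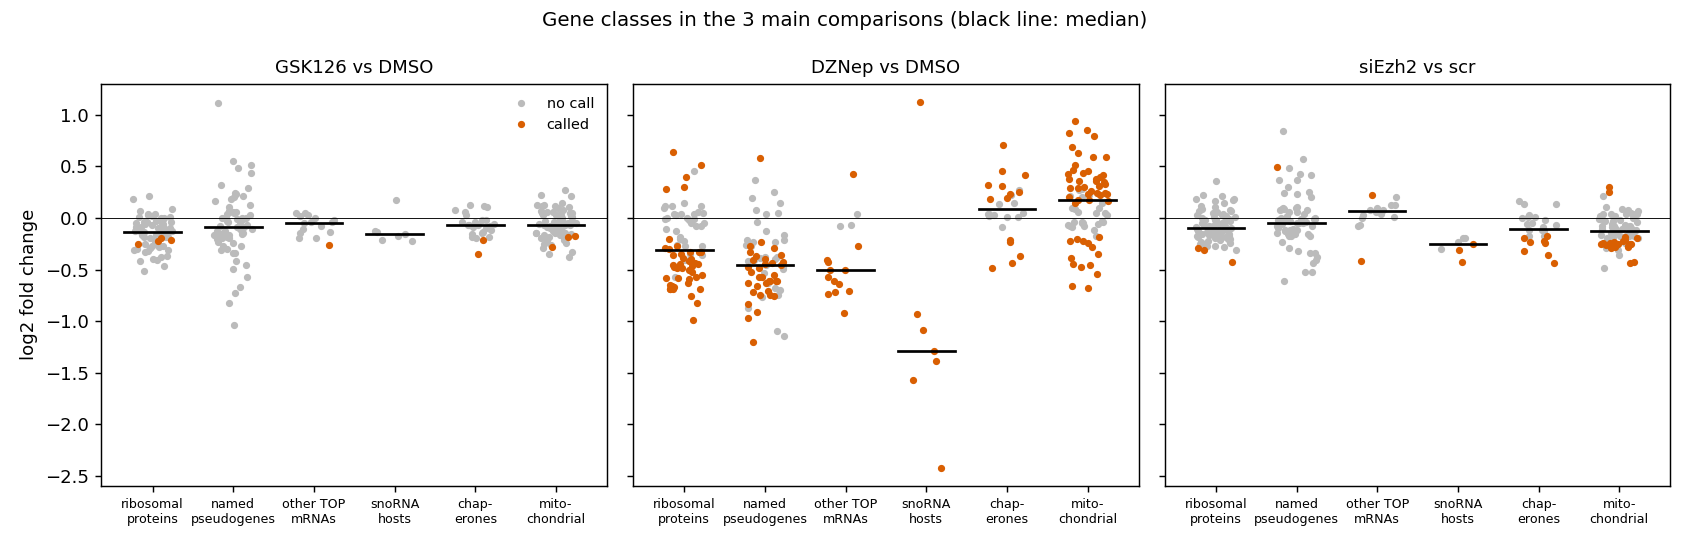
Log2 fold changes of the tested genes of 6 classes in GSK126 over DMSO, DZNep over DMSO and siEzh2 over scr; orange points are called and black lines are medians ("chaperones" includes late assembly factors, and "mitochondrial" means mitochondrial ribosomal proteins). With DZNep the medians of the ribosomal proteins (-0.31), their pseudogenes (-0.45), other TOP mRNAs (-0.50) and snoRNA hosts (-1.29) lie below 0, and those of the chaperones (0.09) and the mitochondrial ribosomal proteins (0.17) above.

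Other transcripts of the translation machinery with a TOP motif fell with DZNep as well. Of 16 listed, such as elongation factors, 12 fell and 1 rose, where 31.0% of all genes tested fell and 31.2% rose; the median was -0.50. Eef2, the elongation factor of translocation, had 1382, 1462 and 1379 CPM in DZNep libraries, against 2249.8, 2313 and 2389 CPM in DMSO libraries (-0.72 ± 0.05, adjusted p = 1.95e-10). Pabpc1, the cytosolic poly(A)-binding protein, had 1559.6, 1678 and 1667 CPM in DZNep libraries, against 2923, 2869 and 3486 CPM in DMSO libraries (-0.92 ± 0.07, adjusted p = 4.37e-10). For both, the groups lay far apart. The 1 that rose was Eef1d (0.42 ± 0.10, adjusted p = 0.00168). With GSK126, 1 of the 16 (6.25%) fell, near the 5.54% of all genes: Rack1, a protein bound to the small subunit (-0.26 ± 0.07, adjusted p = 0.0109); this call was lost without GSK126 replicate 3 (adjusted p = 0.0562) or DMSO replicate 3 (0.0601). With siEzh2, Eif4b rose (0.22 ± 0.05, adjusted p = 0.00151) and Nap1l1 fell (-0.42 ± 0.06, adjusted p = 5.92e-05), where 13.2% of all genes rose and 12.9% fell.

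Host transcripts of small nucleolar RNAs (snoRNAs), the guides of ribosomal RNA modification, had the lowest median of the lists. With DZNep, 6 of 7 tested (85.7%) fell and 1 rose, where 31.0% of all genes fell and 31.2% rose; the median was -1.29. Snhg12 had 4.25, 4.91 and 4.75 CPM in DZNep libraries, against 25.7, 23.6 and 25.5 CPM in DMSO libraries (-2.42 ± 0.10, adjusted p = 3.73e-14). Gas5, whose RNA is degraded by nonsense-mediated decay when translated, had 57, 47.6 and 45.3 CPM in DZNep libraries, against 143, 147 and 155 CPM in DMSO libraries (-1.57 ± 0.10, adjusted p = 4.17e-10). In both, every DZNep value was less than the lowest DMSO value. Snhg15 was the 1 that rose (1.13 ± 0.10, adjusted p = 6.28e-09). With siEzh2, 3 of the 7 (42.9%) fell, where 12.9% of all genes did, among them Snhg5 (-0.43 ± 0.09, adjusted p = 0.00169) and Gas5 (-0.31 ± 0.09, adjusted p = 0.0181). The call of Gas5 was lost without siEzh2 replicate 1 or 3 or scr replicate 2 or 3 (adjusted p from 0.0670 to 0.0879). Relative to DMSO, scr libraries were higher for 3 of the 7 (42.9%) and lower for 0, where 12.2% and 13.6% of all genes were called. Gas5 stood at 137, 174 and 141 CPM in siEzh2 libraries, against 170, 199 and 191 CPM in scr libraries. With GSK126 0 were called (median -0.15; 2 had an unadjusted p under 0.05, and DESeq2 called 0). Among the ribosomal protein genes, 29 hold annotated snoRNAs within their span; 18 of these (62.1%) fell with DZNep and 1 rose, against 20 (42.6%) and 4 of the 47 that hold none, where 31.0% of all genes fell; the difference between them was not tested.

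Genes that assemble or regulate ribosomal proteins were called in both directions with DZNep. Of 26 tested chaperones of ribosomal proteins and late assembly factors, 9 (34.6%) rose and 5 (19.2%) fell with DZNep, where 31.2% of all genes tested rose and 31.0% fell; the median was 0.09. Bysl, needed for maturation of the small subunit, stood at 56.1, 57.4 and 61.4 CPM in DZNep libraries, against 32.6, 36.8 and 37.6 CPM in DMSO libraries (0.71 ± 0.06, adjusted p = 4.47e-09), and Heatr3, which in human cells helps to import RPL5, also rose (0.46 ± 0.06, adjusted p = 2.46e-06). With siEzh2, 8 of the 26 (30.8%) fell and 0 rose, where 12.9% of all genes fell and 13.2% rose (11 had an unadjusted p under 0.05, and DESeq2 also called 0 higher), among them Pdcd2, in human cells a chaperone of RPS2 (-0.44 ± 0.08, adjusted p = 0.000456), and Rsl24d1, a large subunit assembly factor (-0.36 ± 0.07, adjusted p = 0.000509). With GSK126, 2 (7.69%) fell, where 5.54% of all genes did, Pdcd2 (-0.34 ± 0.08, adjusted p = 0.00806) and Zfp622 (-0.21 ± 0.07, adjusted p = 0.0446). The call of Zfp622 was lost without any 1 of the GSK126 replicates (adjusted p from 0.107 to 0.118) and without DMSO replicate 2 (0.0574) or 3 (0.198). Of 14 genes of MYC and mTORC1 signalling, 6 (42.9%) rose and 3 (21.4%) fell with DZNep, where 31.2% of all genes tested rose and 31.0% fell. Myc, an activator of ribosomal protein gene transcription, rose (0.63 ± 0.07, adjusted p = 3.26e-07) and Deptor, an inhibitor of mTOR, fell (-0.67 ± 0.07, adjusted p = 3.24e-08). With siEzh2, Deptor rose (0.89 ± 0.07, adjusted p = 4.36e-09) and so did Eif4ebp1, a target of mTORC1 that represses translation (0.43 ± 0.09, adjusted p = 0.00155); with GSK126, Deptor (-0.37 ± 0.07, adjusted p = 0.000822) and Tsc2 (-0.19 ± 0.04, adjusted p = 0.00366) fell.

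Most of the p53 genes listed for ribosomal stress rose with DZNep. Of 8 tested, 5 (62.5%) rose and 1 (12.5%) fell, where 31.2% of all genes tested rose and 31.0% fell. The 1 that fell was Trp53, which encodes p53 (log2 fold change -0.54). It had 221, 220 and 209 CPM in DZNep libraries, against 300, 322 and 320 CPM in DMSO libraries. Cdkn1a, the cell cycle inhibitor p21, had 642, 656 and 735 CPM in DZNep libraries, against 119.7, 124 and 116 CPM in DMSO libraries (2.50 ± 0.07, adjusted p = 1.10e-16), and Ccng1 rose likewise (1.88 ± 0.06, adjusted p = 1.32e-15). With GSK126, 1 rose, Cdkn1a (0.30 ± 0.06, adjusted p = 0.00357), where 7.15% of all genes did. With siEzh2, 3 (37.5%) fell, where 12.9% of all genes did, among them Bbc3 (-0.44 ± 0.10, adjusted p = 0.00259) and Mdm2 (-0.20 ± 0.05, adjusted p = 0.00369). Relative to DMSO, scr libraries were higher for 4 of the 8 (50%) and lower for 0, where 12.2% and 13.6% of all genes were called. The mitochondrial ribosome, whose proteins are also encoded in the nucleus, had a median of the other sign with DZNep: of 77 genes tested, 36 (46.8%) rose and 14 (18.2%) fell, where 31.2% of all genes tested rose and 31.0% fell, the median being 0.17. With siEzh2, 18 of the 77 (23.4%) fell and 2 (2.60%) rose, where 12.9% of all genes fell and 13.2% rose (median -0.13). Here scr libraries were higher than DMSO libraries for 12 of the 77 (15.6%) and lower for 0, with the same shares of all genes. With GSK126, 3 (3.90%) fell and 0 rose, where 5.54% fell and 7.15% rose (median -0.07; 19 had an unadjusted p under 0.05, and DESeq2 also called 0 higher).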

How the data were processed

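RNA-seq read counts per gene were deposited by the authors as 1 table of whole numbers for 15 libraries, with no normalization. STAR, featureCounts and GRCm38 are named in the submitters' processing notes; for versions, annotation, strand and multi-mapping reads, nothing is given in the sources used here. Of the 46078 identifiers, 45229 matched GENCODE M21, and the 849 others held 0.0588% of the counts. Columns were assigned to libraries by title. Genes were filtered with filterByExpr (15152 kept) and scaled by TMM. All 15 libraries entered 1 robust quasi-likelihood fit in edgeR 4.0.16 (R 4.3.3), with 7 contrasts, Benjamini-Hochberg adjustment over all genes tested and a threshold of 0.05. The standard error of a log2 fold change is its size divided by the square root of F. A group of 3 gives a coarse estimate of spread, and the fit pools it (biological coefficient of variation 6.40%). The fit was tested on simulated data with known changes.

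Genes were named by a rule: the 6 largest increases and decreases called in each main comparison, the 5 highest and lowest levels per length, genes with known roles, all listed paralogs and fusions, and the 2 smallest p-values of each other list. A few others were named after their values were seen. Some genes that the rule names are not reported here. The members and lists were chosen with earlier results of these data known. Alternatives were other scalings, no filter, fits of fewer groups, a replicate block, each library left out, pseudogene counts added (chosen after the data were seen) and DESeq2 1.42.0. Same-numbered libraries did not vary together, so no block was used.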

Additional observations from a re-analysis of the deposited data

How the results depend on the processing

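The median of the 76 genes kept its sign in every alternative tried, from -0.36 to -0.20 with DZNep, -0.21 to -0.05 with GSK126 and -0.13 to -0.04 with siEzh2. With DZNep, between 31 and 48 genes were called lower. Of all genes tested, 19.6% fell with no low-count filter, 24.1% with DESeq2 and between 28.3% and 31.4% in the other alternatives. In every alternative, 29 of the 38 decreases and 1 of the 5 increases kept their call. Calls of named genes kept their side of the threshold in 2144 checks, lost it in 62 and gained it in 31, and 3 changed sign: when pseudogene counts were added, Rpl31 was at -0.16, Rps6 at -0.46 and Rps13 at -0.39 with DZNep. With library totals alone, GSK126 gave 1 higher and 1 lower, scr against DMSO 1 lower, and the siEzh2 effect minus the GSK126 effect 0 above. With no low-count filter, which tests more genes, GSK126 gave 1 higher and 28 lower, where 4.61% of all genes rose and 4.82% fell. For siEzh2 it gave 4 higher and 12 lower, where 7.56% rose and 8.39% fell. In that setting scr against DMSO gave 4 higher, DZNep against GSK126 11 higher, the siEzh2 effect minus the GSK126 effect 14 above and the DZNep effect minus the siEzh2 effect 7 above. With only the groups compared in the fit, GSK126 gave 1 lower, where 2.83% of all genes fell. For siEzh2 that fit gave 2 higher and 5 lower, where 15.6% rose and 13.9% fell. Scr against DMSO then gave 0 higher and 1 lower, and DZNep against GSK126 11 higher. In either setting, the share of all genes was not computed for the comparisons given without it. DESeq2 gave 1 higher with GSK126. With pseudogene counts added, scr against DMSO gave 2 higher and the DZNep effect minus the siEzh2 effect 2 above. Apart from the added genes, the cause of these shifts was not tested.

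Replicate numbers did not pair the libraries: deviations of same-numbered libraries correlated between -0.17 and 0.23, over 0.1 in 2 of 30 pairs. With the replicate block, GSK126 gave 1 higher, scr against DMSO 0 higher and the siEzh2 effect minus the GSK126 effect 1 above; Rpl36 lost its call with DZNep (adjusted p = 0.0506).

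Leaving out 1 library at a time gave 1 to 12 lower with GSK126, 2 to 7 higher with DZNep, 0 to 4 higher and 1 to 8 lower with siEzh2, 0 to 14 higher and 0 to 3 lower for scr against DMSO, 0 to 5 above and 0 to 1 below for the siEzh2 effect minus the GSK126 effect, and 2 to 8 above for the DZNep effect minus the siEzh2 effect. In these fits between 2.74% and 8.07% of all genes fell with GSK126, and between 28.7% and 31.3% rose with DZNep. With siEzh2 between 10.5% and 11.8% rose and between 9.38% and 10.4% fell. As a share of counts without mitochondrially encoded genes, the 76 genes took 0.917% in GSK126, 0.749% in DZNep, 0.984% in DMSO, 0.967% in siEzh2 and 1.02% in scr. Together with their named pseudogene entries they took 1.15% of all counts in GSK126, 0.945% in DZNep, 1.24% in DMSO, 1.23% in siEzh2 and 1.29% in scr.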

Other observations

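Over the 76 genes, the 15 libraries differed mainly along 1 axis. The first principal component of their log2 levels held 51.6% of the variance, and the 3 DZNep libraries had the lowest scores on it (-2.86, -2.24 and -2.59), against -0.01, 0.26 and 2.24 for the DMSO libraries, the highest being DMSO replicate 3. The second held 22%; the GSK126 libraries were at 1.13, 0.98 and 1.17, against 1.39, 0.75 and -1.56 for the DMSO libraries, so replicate 3 lay apart from its group there too. The siEzh2 libraries were at 0.95, -1.15 and 0.06 on that component, against -0.61, -0.04 and -0.32 for the scr libraries.

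Across the 76 genes, the DZNep log2 fold change had a Spearman correlation of 0.17 with the share of windows found in other genes and of -0.13 with mRNA length. These are descriptions over genes of the same 6 libraries, and genes are not independent replicates. By mRNA length, the median log2 fold change with DZNep was -0.35 for the 14 ribosomal protein genes of up to 500 bases, against -0.24 for the 77 other protein-coding genes of that length. It was -0.27 for the 43 of over 500 and up to 1000 bases, against 0.04 for the 672 others.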
